A study of Homo sapiens with 27 samples.

Results

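The genes described here are 10 regulators of apoptosis of the BCL2 family, BCL2, BCL2L1, BCL2L2, MCL1, BCL2L11, BAK1, BID, BIK, BMF and BAD, in human prostate cancer cells in which the kinase gene RIPK2 was targeted with guide RNAs (gRNAs). They were chosen by symbol, not by their values, and make up 10 of the 20089 symbols listed for all 3 cell lines. All 10 were listed in each line and all 10 passed the filter on low counts in each. BCL2 family proteins set the threshold at which a cell dies through its mitochondria. BCL2, BCL2L1 (BCL-XL), BCL2L2 (BCL-w) and MCL1 protect the outer mitochondrial membrane, whereas BAK1, with its relative BAX, forms pores in it that release cytochrome c. The BH3-only proteins BCL2L11 (BIM), BID, BIK, BMF and BAD bind the protective members, and BIM and the cleaved form of BID can also activate BAK1 and BAX directly. BCL2 and BCL-XL are known to be raised in some advanced prostate cancers, and drugs that mimic a BH3 domain act on the protective members.

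The lines were 22Rv1, DU145 and PC3, all labelled as prostate cancer cells. As background, 22Rv1 came from a xenograft, DU145 came from a brain metastasis and PC3 from a bone metastasis. Each gave 3 libraries with control gRNA 1, labelled WT, 3 with a first RIPK2 guide and 3 with RIPK2 gRNA 10. The first guide was numbered gRNA 1 for 22Rv1 cells, whereas DU145 and PC3 cells received gRNA 2. The RIPK2 groups are knockouts according to the series' design, and the groups share no other stated treatment. The labels do not say whether a group is 1 clone or a pool of cells, and they give no guide sequence. They also do not say whether replicates came from separate cultures, so p-values measure the spread between these libraries, which may be technical. If a group is 1 clone, its own differences and those of the knockout cannot be told apart.

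RNA was measured as strand-specific mRNA counts, with 17958558 to 20650819 counts per library. Levels are given as CPM, the usual count scaled to a common library size, here after TMM normalization within each line. RIPK2 RNA was 16.7 ± 1.29 CPM (SD, n = 3) in 22Rv1 controls, 8.69 ± 0.633 with gRNA 1 and 5.38 ± 0.189 with gRNA 10. In DU145 it was 42.4 ± 2.67, 11.8 ± 1.77 and 34.8 ± 1.51 CPM, and in PC3 60.4 ± 1.74, 20.6 ± 0.946 and 27.2 ± 1.51, in the order control, gRNA 2 and gRNA 10. The fall of RIPK2 RNA passed the test in 5 of the 6 guide groups (edgeR adjusted p from 1.45e-20 to 8.76e-05). With gRNA 10 in DU145 its libraries, at 36.4, 33.4 and 34.4 CPM, all lay below the controls, at 39.4, 44.4 and 43.5. That difference did not pass the test (log2 -0.29 ± 0.11, SE, edgeR adjusted p = 0.0614). An edit can disrupt a gene without lowering its RNA. Replicate 3 of 22Rv1 gRNA 1 stood apart, with 16.65% of its counts from mitochondrially encoded genes against 2.10% and 1.92% in the other replicates. Replicate 3 of DU145 gRNA 2 also stood apart, at 2.89% against 1.75% and 2.12%, with the lowest TMM factor (0.902). Where leaving out either library changed a member's call against control, that is stated beside the result. For RIPK2 and the genes of the pathway lists, results without these libraries are not given. The epithelial genes EPCAM (40.7 to 58.1 CPM) and KRT8 (173 to 425 CPM) were present in all 3 control groups. The leucocyte gene PTPRC and the fibroblast gene DCN held at most 2 counts in any control library. Other markers of such cells were not all absent. In PC3 controls the sum of 3 fibroblast markers was 10.1 to 11.4 CPM, with DCN and LUM at or under 3 counts. There the sum of 3 leucocyte markers reached 0.498 CPM and that of 2 endothelial markers 2.24 CPM. In bulk RNA, fewer cells that express a gene and less RNA per cell cannot be told apart.

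The upstream sequences of BCL2L11, BMF and BAK1 are printed because, of the members with upstream sequence outside annotated untranslated regions, these gave the largest falls and the largest rise with a guide. The RefSeq promoter table (GRCh38.p14) held 7 of the 10 members, without MCL1, BCL2L2 and BIK. The first start listed for each member was used, and the 250 bases before it were searched on both strands. The motifs were GTAAACA, a forkhead core motif, a kappa B motif, CACGTG, an E-box, and TGANTCA, an AP-1-like motif. BID has 5 starts in the table, and BCL2L1, BMF and BAD have 2 each. Their further starts were not searched. GTAAACA is held by 2.98% of the 35116 upstream windows in the table, the kappa B motif by 0.527%, CACGTG by 6.34% and TGANTCA by 6.57%. The single match among the 7 windows searched was GTAAACA in BCL2L11, 223 to 217 bases before the start on the gene's strand, shown in capitals. Forkhead factors of the FOXO group are known activators of BIM, but a match describes letters and not binding. Bases that overlap an annotated untranslated region were left off the BAK1 and BMF sequences. BCL2L11 (chr2:111120664-111120913, plus strand), BMF (chr15:40108893-40109129, minus strand) and BAK1 (chr6:33580294-33580526, minus strand) read 5′ to 3′ as follows.
BCL2L11: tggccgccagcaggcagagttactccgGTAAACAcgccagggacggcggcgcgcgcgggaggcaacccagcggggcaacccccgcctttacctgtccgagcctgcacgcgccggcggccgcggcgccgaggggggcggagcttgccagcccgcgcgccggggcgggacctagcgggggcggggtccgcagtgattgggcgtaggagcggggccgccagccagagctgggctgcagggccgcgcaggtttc
BMF: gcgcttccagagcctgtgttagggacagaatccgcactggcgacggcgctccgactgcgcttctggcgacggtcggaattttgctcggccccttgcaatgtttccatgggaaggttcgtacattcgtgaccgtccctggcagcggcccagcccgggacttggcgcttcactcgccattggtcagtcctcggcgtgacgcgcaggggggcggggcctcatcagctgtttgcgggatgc
BAK1: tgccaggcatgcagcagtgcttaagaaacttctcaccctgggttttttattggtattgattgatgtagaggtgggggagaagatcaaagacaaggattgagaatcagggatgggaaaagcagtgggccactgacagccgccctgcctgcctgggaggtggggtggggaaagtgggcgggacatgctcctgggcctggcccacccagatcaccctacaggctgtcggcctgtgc
The full BCL2L11 window is 76.8% G and C with 34 CpG dinucleotides, that of BMF 65.2% with 26, and that of BAK1 58.0% with 5. The median window in the table has 58% and 11.

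In the control cells, the 3 lines differed most in BID, BCL2L1 and BCL2. BID, the BH3-only protein that links death receptors to mitochondria, was 4.55 ± 0.795 CPM in 22Rv1, 58 ± 1.23 in DU145 and 24.1 ± 0.424 in PC3. DU145 exceeded 22Rv1 by 3.67 on the log2 scale, a fold of 12.7. BCL2L1 rose in level from 60.9 ± 4.27 CPM in 22Rv1 through 246 ± 9.17 in DU145 to 517 ± 3.58 in PC3. In the model of all 27 libraries, BCL2L1 in PC3 was 9.43-fold the 22Rv1 level. Folds and log2 differences between lines come from that model, which has its own scaling. They can differ from ratios of the CPM values, which were scaled within each line. BCL2 itself was highest in 22Rv1, at 27.9 ± 1.54 CPM, with 13.1 ± 0.401 in PC3 and 5.5 ± 0.588 in DU145. BCL2L11 was also highest in 22Rv1, at 49 ± 0.85 CPM against 19.4 ± 1.45 in DU145 and 10.9 ± 0.075 in PC3. In edgeR's quasi-likelihood test over all 27 libraries, 7 of 10 members differed between DU145 and 22Rv1 controls, beside 75.9% of the 16322 genes tested. Between PC3 and 22Rv1 9 of 10 differed beside 80.5% of genes, and between PC3 and DU145 all 10 differed beside 75.9%. Most genes thus differed between the lines, members or not. Each line has a count table of its own, so the line and the making of its table cannot be told apart.

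BAD and BAK1 had the same order of lines as BCL2L1. BAD, a BH3-only protein controlled by survival kinases, rose from 36.4 ± 4.87 CPM in 22Rv1 to 50.9 ± 2.21 in DU145 and 104 ± 2.91 in PC3, and BAK1 from 34.1 ± 3.88 to 65.7 ± 2.74 and 79.8 ± 3.82. MCL1, a short-lived protective protein, was 589 ± 48.6 CPM in 22Rv1 and 549 ± 9.34 in DU145, which did not differ by the test (log2 difference -0.10 ± 0.09, SE, edgeR adjusted p = 0.345), and 307 ± 2.79 in PC3. BCL2L2 was 55.2 ± 1.15 CPM in 22Rv1 and 50.4 ± 2.78 in PC3, but 24.4 ± 0.733 in DU145. Between PC3 and 22Rv1 its log2 difference was 0.02 ± 0.08 in the model of all 27 libraries (edgeR adjusted p = 0.824). BMF, a BH3-only protein bound to the motor complexes of the cytoskeleton, was 10.9 ± 1.57, 10.2 ± 0.283 and 18.5 ± 0.832 CPM in 22Rv1, DU145 and PC3, and BIK, a BH3-only protein of the endoplasmic reticulum, 3.46 ± 0.36, 3.62 ± 0.364 and 1.08 ± 0.386. For BMF and BIK the levels of 22Rv1 and DU145 did not differ beyond their spread (edgeR adjusted p = 0.724 and 0.773). Every other pair of lines differed for every member.

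Levels of different genes can be compared only per length, here CPM per kb of annotated exons (GENCODE 29). On that scale MCL1 led the members in 22Rv1 controls at 135 ± 11.1 and in DU145 controls at 126 ± 2.14. The next in 22Rv1 was BAD at 21.3 ± 2.85, and in DU145 BCL2L1 at 74.4 ± 2.77. PC3 had BCL2L1 first at 156 ± 1.08, ahead of MCL1 at 70.1 ± 0.637 and BAD at 60.8 ± 1.7. With the longest annotated transcript as the length, BAD came before MCL1 in PC3. BCL2 was among the lowest in each line, from 0.468 ± 0.050 in DU145 to 2.37 ± 0.131 in 22Rv1.

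**Figure D1:**
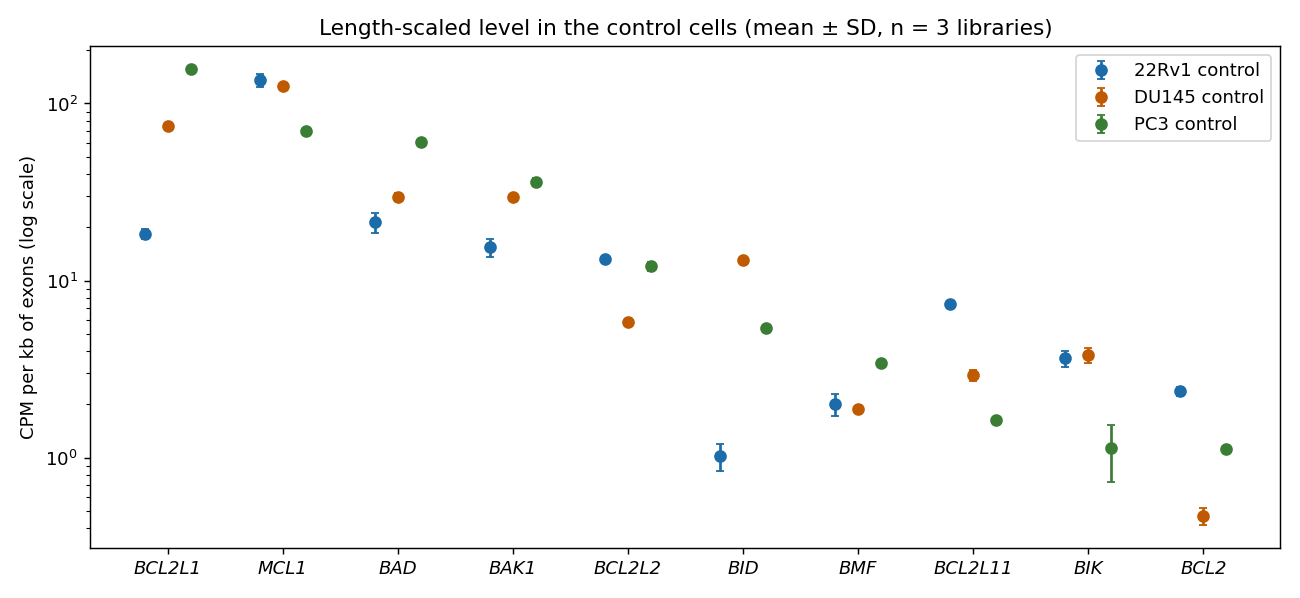
Length-scaled level of the 10 genes in control cells of the 3 lines (vertical axis, CPM per kb of exons, log scale) as mean and SD of 3 libraries, with genes ordered by their level in PC3. MCL1 is highest in 22Rv1 and DU145 and BCL2L1 in PC3.

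With the RIPK2 guides, 33 of the 60 combinations of gene, guide and line passed the test (edgeR quasi-likelihood, Benjamini-Hochberg adjusted p below 0.05 over all genes tested), 12 as rises and 21 as falls. In 22Rv1, 6 of 10 members changed with gRNA 1 beside 48.5% of the 15198 genes tested. Of these 3 rose, beside 25.6% of genes, and 3 fell, beside 22.9%. With gRNA 10, 5 changed beside 40.6%, as 3 rises (beside 20%) and 2 falls (beside 20.6%), and 3 changed without gRNA 10 replicate 1, beside 29.9%. In DU145, 3 changed with gRNA 2 beside 34% of 14908 genes, as 1 rise (beside 17.1%) and 2 falls (beside 17%). With gRNA 10, 1 changed beside 40%, and it was a fall, beside 19.8% of genes that fell and 20.2% that rose. In PC3, 9 changed with gRNA 2 beside 63.6% of 14718 genes, as 1 rise (beside 32.1%) and 8 falls (beside 31.5%). With gRNA 10, 9 changed beside 73.5%, as 4 rises (beside 37.9%) and 5 falls (beside 35.6%). The DU145 gRNA 10 count changed with the libraries in the fit. It was 7 when only the control and gRNA 10 libraries were fitted, beside 66.2% of genes, and 4 without gRNA 2 replicate 3, beside 58.4%. Without gRNA 2 replicate 1 or 2 the count was 2, beside 40.9% and 45.9%. In DU145 with gRNA 2, 5 passed without its replicate 3, beside 45.8%. The members' median log2 fold change was -0.18 and 0.11 in 22Rv1 (gRNA 1 and 10), 0.00 and -0.07 in DU145 (gRNA 2 and 10) and -0.23 and -0.13 in PC3. The median of all genes tested was 0.02 with gRNA 1 in 22Rv1 and closer to 0 in the other 5 comparisons. Most changes were small, with 20 of the 33 under 0.58 on the log2 scale and 4 at or above 1. Replicates differed least in PC3, with a common biological coefficient of variation of 3.55% against 14.2% in 22Rv1 and 12.3% in DU145, so smaller changes passed there. Cell type markers moved too. In 22Rv1 the summed level of 3 mesenchymal markers was 13.8 to 15.9 CPM in controls, 37.0 to 56.4 with gRNA 1 and 7.80 to 9.68 with gRNA 10. The sum of 3 neuroendocrine markers, of which only SYP exceeded 3 counts in controls, was 88.4 to 96.6, 60.6 to 80.9 and 147 to 155 CPM in the same order, and that of 4 epithelial markers 821 to 876, 993 to 1011 and 1044 to 1077. The summed level of the epithelial markers in DU145 was 796 to 841 CPM in controls, 1486 to 2816 with gRNA 2 and 1429.8 to 1543 with gRNA 10, and that of the mesenchymal markers, with CDH2 at or under 3 counts, 631 to 661, 721 to 1279 and 622 to 638. In PC3 the epithelial sum was 734 to 759, 921 to 972 and 1641 to 1759 CPM, and the mesenchymal sum 1551 to 1597, 2284 to 2344 and 1332 to 1408. Sums at low levels moved as well. In PC3 the fibroblast sum was 10.1 to 11.4, 1.19 to 1.48 and 0.481 to 0.673 CPM, with DCN and LUM at or under 3 counts. The endothelial sum there was 1.70 to 2.24, 8.75 to 9.71 and 5.90 to 7.75 CPM. In DU145 the neuroendocrine sum was 6.57 to 7.88, 1.66 to 2.18 and 4.53 to 6.11 CPM. The part of these shifts in the members' results was not tested.

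**Figure D2:**
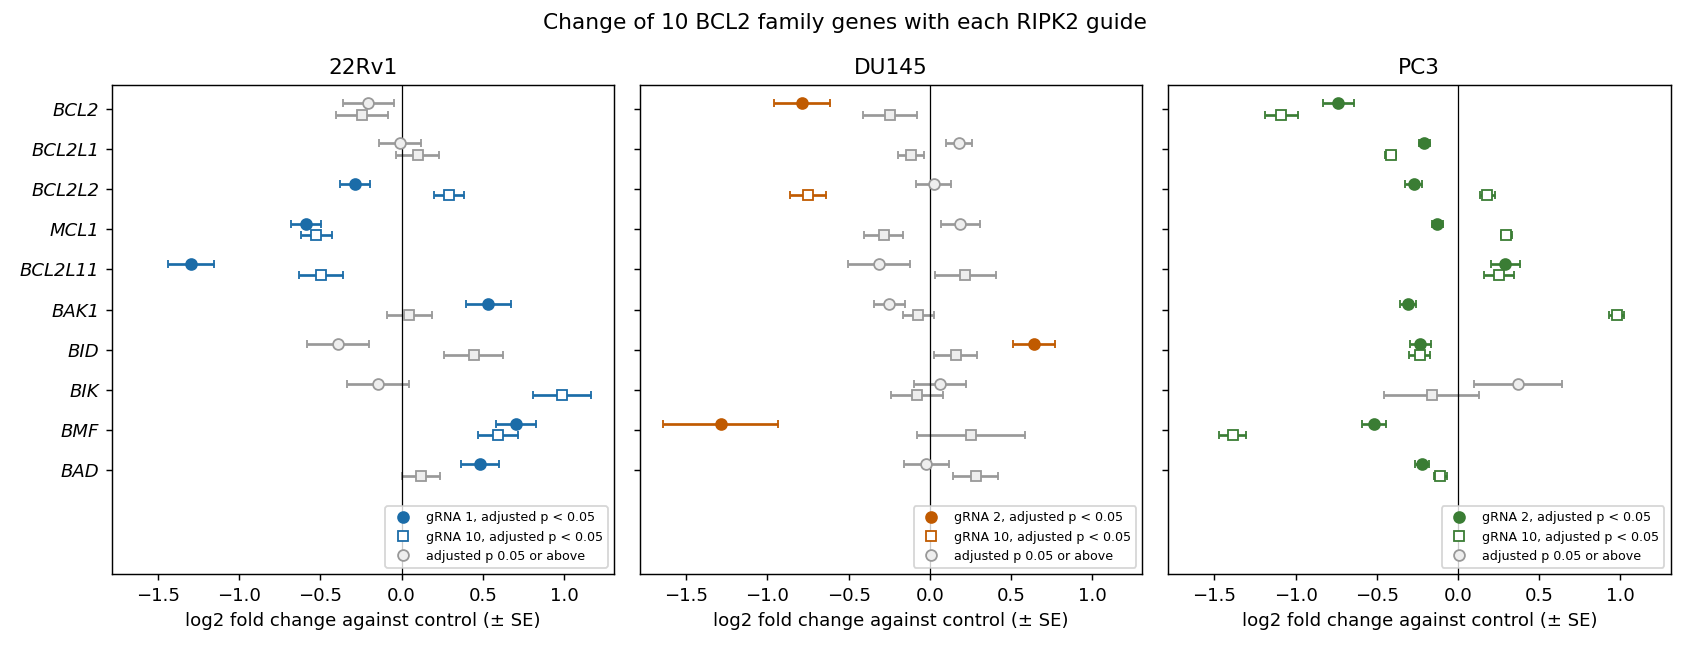
Log2 fold change against control (horizontal axis, ± SE) of the 10 genes with each RIPK2 guide, 1 panel per line. Coloured points passed edgeR at an adjusted p below 0.05. Grey points did not. BCL2L11 with gRNA 1 in 22Rv1, BMF with gRNA 2 in DU145, and BMF and BCL2 with gRNA 10 in PC3 lie beyond -1.

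The protective gene BCL2 (chr18:63123346-63320128, minus strand, hg38 coordinates of GENCODE 29 here and for the other members) had a negative fold change in all 6 comparisons and fell in 3 of them. In PC3 the controls held 12.7, 13.5 and 13.1 CPM, the gRNA 2 libraries 7.24, 7.59 and 8.75 and the gRNA 10 libraries 5.22, 6.84 and 6.44. The 6 RIPK2 libraries of PC3 all lay below the controls. Its log2 fold change was -0.74 ± 0.10 (SE) with gRNA 2 (edgeR adjusted p = 6.47e-08) and -1.09 ± 0.10 with gRNA 10 (edgeR adjusted p = 3.5e-11). In DU145, controls were at 4.85, 5.99 and 5.66 CPM and gRNA 2 libraries at 2.78, 3.56 and 3.21, with no overlap (log2 fold change -0.79 ± 0.17, edgeR adjusted p = 0.00581). The DU145 gRNA 10 libraries, at 5.34, 4.54 and 4.05 CPM, overlapped the controls. In 22Rv1 the controls were at 28.1, 29.2 and 26.2 CPM, gRNA 1 at 28.5, 26.5 and 17.4 and gRNA 10 at 24.5, 21.8 and 24.4. The single low value with gRNA 1 is replicate 3, the library rich in mitochondrial counts, and all gRNA 10 values lay below the controls. Neither 22Rv1 comparison passed (edgeR adjusted p = 0.31 and 0.253), and the gRNA 1 value went from -0.20 to -0.03 without replicate 3. The gRNA 10 value passed without that library and when only the compared groups were fitted.

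BCL2L1 (chr20:31664452-31723989, minus strand), whose product BCL-XL is a protective protein of many carcinomas, fell in PC3 with both guides. PC3 controls held 521, 514 and 516 CPM, gRNA 2 456, 447 and 439 and gRNA 10 394, 377 and 395. The 3 groups did not overlap and stood in that order. The log2 fold changes were -0.21 ± 0.03 and -0.41 ± 0.03 (edgeR adjusted p = 2.87e-06 and 2.46e-12). In 22Rv1 its log2 fold changes were -0.01 ± 0.13 and 0.10 ± 0.13 and in DU145 0.18 ± 0.08 and -0.11 ± 0.08, and none of these passed (lowest edgeR adjusted p = 0.107). Without replicate 3 of DU145 gRNA 2, the DU145 gRNA 2 value was 0.24 and passed (edgeR adjusted p = 0.00886), and the DU145 gRNA 10 value passed when only the compared groups were fitted (edgeR adjusted p = 0.0348). The antisense gene ABALON overlaps 43.0% of the BCL2L1 exons, and the strand setting of the counting is not given, so part of these counts may be antisense.

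MCL1 (chr1:150574551-150579738, minus strand) fell with both guides in 22Rv1. The controls were at 571, 645 and 553 CPM, gRNA 1 at 367, 376 and 432 and gRNA 10 at 403, 420.5 and 404. Each RIPK2 library was below each control, and the log2 fold changes were -0.59 ± 0.09 and -0.53 ± 0.09 (edgeR adjusted p = 0.000522 and 0.00119). In PC3 the guides moved it in opposite directions. Against controls at 307, 309 and 303 CPM, gRNA 2 libraries were at 281, 279.7 and 281 and gRNA 10 libraries at 371, 379.8 and 381. Both shifts passed (edgeR adjusted p = 0.00146 for -0.13 ± 0.03 and 1.87e-09 for 0.30 ± 0.03), again without overlap. DU145 gave 548, 559 and 541 CPM in controls, 519, 598 and 762 with gRNA 2 and 462, 439 and 453 with gRNA 10. The highest of these, 762 CPM, is replicate 3 of gRNA 2, and the gRNA 2 log2 fold change was 0.19 with it and 0.03 without it. All 3 gRNA 10 values were below the controls, but the change of -0.28 ± 0.12 missed the threshold (edgeR adjusted p = 0.0895) and passed when only the compared groups were fitted or without gRNA 2 replicate 1 or 3.

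BCL2L2 (chr14:23298790-23311759, plus strand), which encodes BCL-w, fell in DU145 with gRNA 10 and was the single member that passed there in the fit of all 9 DU145 libraries. Controls held 23.6, 25 and 24.5 CPM and gRNA 10 libraries 13.2, 16.2 and 14, while gRNA 2 libraries held 22.5, 24.5 and 27.4. The gRNA 10 group lay apart from both others, with a log2 fold change of -0.75 ± 0.11 (edgeR adjusted p = 0.000468). RIPK2 RNA was also below the controls in these libraries, but did not pass the test. In 22Rv1 it fell to 45.2 ± 2.4 CPM with gRNA 1 and rose to 67.6 ± 4.93 with gRNA 10 from 55.2 ± 1.15 (log2 -0.29 ± 0.09 and 0.29 ± 0.09, edgeR adjusted p = 0.0242 and 0.025). The first adjusted p ranged from 0.00758 to 0.0723 over the alternatives and the second from 0.0031 to 0.114. Leaving out control replicate 1 or 3, or replicate 1 of the guide, ended each call, as did leaving out gRNA 10 replicate 3 for the rise. Fitting only the compared groups ended the first and using no filter on low counts the second. PC3 showed the same opposite signs, -0.27 ± 0.05 with gRNA 2 and 0.18 ± 0.05 with gRNA 10 (edgeR adjusted p = 2.72e-05 and 0.0014). A read-through gene on the same strand, BCL2L2-PABPN1, shares 19.4% of the BCL2L2 exons, so its reads may be split between the symbols.

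BAK1 (chr6:33572547-33580293, minus strand), the pore-forming member of the set, rose most in PC3 with gRNA 10. Controls were at 83.1, 75.6 and 80.7 CPM and gRNA 10 libraries at 161, 148 and 163, whereas gRNA 2 libraries were at 65, 65.3 and 63.2. The gRNA 10 group was 1.97-fold the control (log2 0.98 ± 0.04, edgeR adjusted p = 1.37e-18) and the gRNA 2 group lower (log2 -0.31 ± 0.05, edgeR adjusted p = 1.3e-06). The 3 groups did not overlap. In 22Rv1 BAK1 rose with gRNA 1, from 37.4, 29.8 and 35 CPM to 51.6, 57.2 and 39.4 (log2 0.54 ± 0.14, edgeR adjusted p = 0.00879). The lowest gRNA 1 value is again replicate 3, without which the log2 change was 0.66. With gRNA 10 the 22Rv1 libraries held 35.6, 35 and 35 CPM and overlapped the controls. In DU145 its log2 values were -0.25 ± 0.10 and -0.07 ± 0.10, neither of which passed (edgeR adjusted p = 0.0682 and 0.592). The first passed without replicate 3 of gRNA 2 (log2 -0.28, edgeR adjusted p = 0.0236).

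BCL2L11 (chr2:111119378-111168447, plus strand) gave the largest change of a member in 22Rv1. Controls held 49.9, 48.2 and 49 CPM, gRNA 1 libraries 23, 21.8 and 15 and gRNA 10 libraries 33.3, 36 and 35. The 3 groups did not overlap, with gRNA 10 between the others. BIM RNA was at 40.7% of control with gRNA 1 (log2 -1.30 ± 0.14, edgeR adjusted p = 3.74e-05) and 70.9% with gRNA 10 (log2 -0.50 ± 0.14, edgeR adjusted p = 0.0143). Without the gRNA 1 library rich in mitochondrial counts the first value was -1.14 (edgeR adjusted p = 1.37e-07). The second lost its call without gRNA 10 replicate 1 (edgeR adjusted p 0.065, range over all alternatives 5.24e-05 to 0.065). In PC3 BCL2L11 rose with both guides, from 10.8, 10.9 and 10.9 CPM to 13.3, 12.6 and 14.1 with gRNA 2 and 13.1, 14.7 and 11.1 with gRNA 10. These rises were 0.29 ± 0.09 and 0.25 ± 0.09 on the log2 scale (edgeR adjusted p = 0.00592 and 0.0142). Leaving out gRNA 10 replicate 2 ended that guide's call (edgeR adjusted p 0.159). DU145 libraries held 21, 18.3 and 18.9 CPM in controls, 17.3, 19.2 and 10.2 with gRNA 2 and 22.1, 21.9 and 23.8 with gRNA 10. The lowest of these is replicate 3 of gRNA 2 and the gRNA 10 values lay above the controls, but neither guide passed (edgeR adjusted p = 0.232 and 0.383). Without that library the gRNA 2 log2 fold change went from -0.31 to -0.08 and the gRNA 10 result passed. The opposite-strand RNA MIR4435-2HG overlaps 10.9% of the BCL2L11 exons.

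BMF (chr15:40087890-40108892, minus strand) moved in opposite directions in 22Rv1 and PC3. In 22Rv1 it rose from 12.2, 9.14 and 11.4 CPM to 17.1, 18 and 18.3 with gRNA 1 and 16.7, 16.9 and 15.8 with gRNA 10, with no overlap. The log2 changes were 0.71 ± 0.12 and 0.59 ± 0.12 (edgeR adjusted p = 0.000898 and 0.00291). In PC3 it fell from 19.4, 17.7 and 18.5 CPM to 12.9, 12.9 and 13.1 with gRNA 2 and 7.79, 6.55 and 6.92 with gRNA 10, so that the last group was at 38.2% of control. These falls were -0.52 ± 0.07 and -1.39 ± 0.08 (edgeR adjusted p = 4.51e-07 and 1.55e-15), the second being the largest change of any member. In DU145 the gRNA 2 libraries held 6.55, 4.53 and 1.38 CPM against 9.94, 10.5 and 10.3 in controls and 12, 13 and 11.6 with gRNA 10. All 3 gRNA 2 values were lower, but replicate 3, with 25 counts, was far below the others. The log2 fold change was -1.29 ± 0.36 (edgeR adjusted p = 0.0187) and -0.88 without that replicate (edgeR adjusted p = 0.000211). The call was lost when only the compared groups were fitted and without control replicate 2 or 3 (edgeR adjusted p up to 0.0591 over the alternatives). The gRNA 10 difference (0.25, edgeR adjusted p = 0.575) passed when only the compared groups were fitted (edgeR adjusted p = 0.0162). BMF-AS1 overlaps 8.46% of the BMF exons on the other strand.

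BID (chr22:17734138-17774770, minus strand) rose in DU145 with gRNA 2, from 56.9, 57.7 and 59.3 CPM to 87.6, 73.9 and 110.4 (log2 0.64 ± 0.13, edgeR adjusted p = 0.00395), with every gRNA 2 library above every control. The gRNA 10 libraries, at 59.6, 67.7 and 66.9 CPM, were also above the controls but did not pass (edgeR adjusted p = 0.357), except when only the compared groups were fitted (edgeR adjusted p = 0.0212). In PC3 it fell to a like extent with the 2 guides, from 24.1 ± 0.424 CPM to 20.6 ± 0.686 and 20.5 ± 1.48 (log2 -0.23 ± 0.06 and -0.23 ± 0.06, edgeR adjusted p = 0.00258 and 0.00174). In 22Rv1, where BID was lowest, libraries held 5.39, 4.46 and 3.8 CPM in controls, 3.09, 3.24 and 4.1 with gRNA 1 and 6.82, 6.55 and 5.2 with gRNA 10. Neither guide passed against control (edgeR adjusted p = 0.116 and 0.0781), and the gRNA 1 value passed without its replicate 3 (log2 -0.53, edgeR adjusted p = 0.0302). The gRNA 10 value passed without that library (log2 0.45, edgeR adjusted p = 0.0211) and when only the compared groups were fitted.

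BIK (chr22:43110748-43129712, plus strand) rose in 22Rv1 with gRNA 10, from 3.73, 3.6 and 3.05 CPM to 6.82, 6.81 and 7.0, and was 1.98-fold the control (log2 0.99 ± 0.18, edgeR adjusted p = 0.00139). These were 57 to 70 counts in controls and 132 to 136 with the guide. The gRNA 1 libraries, at 2.77, 2.59 and 4.04 CPM, overlapped the controls. In DU145 and PC3 BIK did not pass with any guide (edgeR adjusted p from 0.234 to 0.784), and PC3 libraries held only 13 to 34 counts of it, so small changes were not detectable at this depth.

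BAD (chr11:64269830-64284704, minus strand) rose in 22Rv1 with gRNA 1, from 39.3, 30.8 and 39.1 CPM to 49.7, 47 and 56.1 (log2 0.48 ± 0.12, edgeR adjusted p = 0.00638), with no overlap. The gRNA 10 libraries overlapped the controls at 39.5 ± 1.92 CPM. In PC3 it fell slightly with both guides, from 104 ± 2.91 CPM to 89.1 ± 3.06 and 96.4 ± 3.0 (log2 -0.22 ± 0.04 and -0.11 ± 0.04, edgeR adjusted p = 3.3e-05 and 0.0215). Leaving out control replicate 1, control replicate 3 or gRNA 10 replicate 2 ended the gRNA 10 call (edgeR adjusted p up to 0.0846). DU145 values were -0.02 ± 0.14 and 0.28 ± 0.14 on the log2 scale and did not pass (edgeR adjusted p = 0.921 and 0.129), although the second passed without gRNA 2 replicate 2 or 3 and when only the compared groups were fitted. GPR137 overlaps 23.7% of the BAD exons on the opposite strand.

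**Figure D3:**
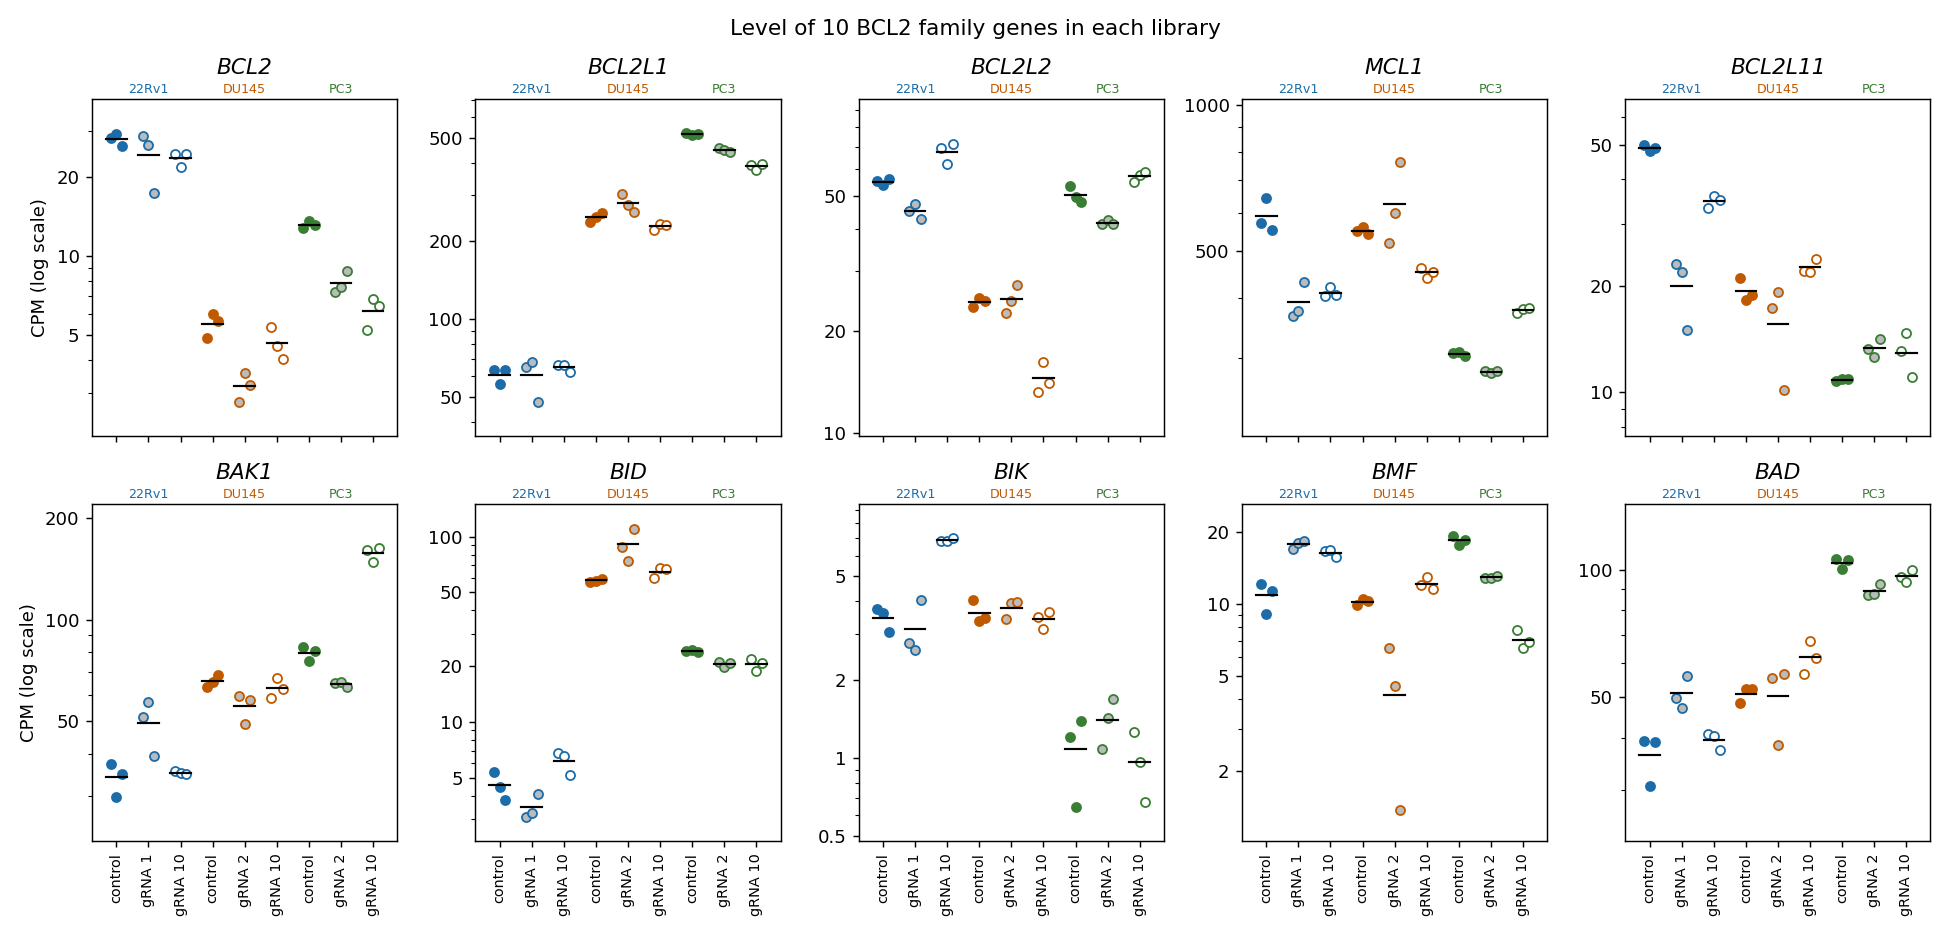
Level of each gene in each of the 27 libraries (vertical axis, CPM, log scale), 1 panel per gene with its own range. Filled points are controls, grey-filled points the guide 1 or 2 libraries, open points gRNA 10, and bars the mean of 3 libraries. Replicate 3 holds the lowest BMF and BCL2L11 values with gRNA 2 in DU145 and the lowest BCL2 and BCL2L11 values with gRNA 1 in 22Rv1. For BMF in DU145 and BCL2L11 in 22Rv1, all 3 libraries of these groups lie below the controls.

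The guides of a line often differed from each other. In 22Rv1, 6 members differed between gRNA 1 and gRNA 10 beside 35.6% of genes tested, in DU145 7 differed between gRNA 2 and gRNA 10 beside 38.8%, and in PC3 7 differed beside 73.4% (edgeR quasi-likelihood). In DU145 4 differed when only the compared groups were fitted, beside 27.5%, 4 without gRNA 10 replicate 2, beside 28.3%, and 3 without gRNA 10 replicate 1, beside 28.5%. Both guides of 22Rv1 lowered MCL1 and BCL2L11 and raised BMF. Both guides of PC3 lowered BCL2, BCL2L1, BID, BMF and BAD and raised BCL2L11. In DU145 no member passed with both guides, and a single one passed with gRNA 10, whereas BID passed as higher with both when only the compared groups were fitted. The guides of a line share their controls, so such pairs are not independent. The share of all genes that passed with both guides is not given. Whether the members differ from other genes in this cannot be read here. Passing changes of opposite sign were seen for BCL2L2 in 22Rv1 and for BCL2L2, MCL1 and BAK1 in PC3. The largest differences between guides were BMF in DU145 (log2 -1.54 ± 0.36 for gRNA 2 against gRNA 10, edgeR adjusted p = 0.00671) and BAK1 in PC3 (-1.29 ± 0.05, edgeR adjusted p = 2.06e-21). In 22Rv1 BIK differed most, with a log2 value of -1.14 ± 0.18 for gRNA 1 against gRNA 10 (edgeR adjusted p = 0.000808), followed by BID (-0.83 ± 0.19, edgeR adjusted p = 0.00607) and BCL2L11 (-0.80 ± 0.14, edgeR adjusted p = 0.00141).

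The gRNA 10 effect, available in all 3 lines, was compared between lines in the model of all 27 libraries. It differed between DU145 and 22Rv1 for 3 members, beside 44.7% of 16322 genes, between PC3 and 22Rv1 for 8, beside 47.6%, and between PC3 and DU145 for 8, beside 48.1%. BMF gave the largest of these, with a log2 difference of -2.02 ± 0.31 for PC3 minus 22Rv1 and -1.67 ± 0.31 for PC3 minus DU145 (edgeR adjusted p = 5.14e-06 and 6.72e-05). BAK1 was 0.90 ± 0.15 higher in PC3 than in 22Rv1 and 1.02 ± 0.15 higher than in DU145 (edgeR adjusted p = 1.81e-05 and 2.31e-06). Without both libraries that stand apart, 6 members differed between DU145 and 22Rv1, beside 57.2% of genes. The PC3 and DU145 count was 5 without DU145 control replicate 1 or 2, DU145 gRNA 10 replicate 2 or 3, PC3 control replicate 3 or PC3 gRNA 10 replicate 2, beside 43.6% to 44.7% of genes. Each pair of these comparisons shares the libraries of 1 line. The gRNA 10 change of RIPK2 RNA itself also differed between lines. It differed by 1.34 ± 0.14 for DU145 minus 22Rv1 and by 0.44 ± 0.14 for PC3 minus 22Rv1 (edgeR adjusted p = 1.37e-08 and 0.00905). For PC3 minus DU145 it differed by -0.89 ± 0.13 (edgeR adjusted p = 1.68e-06). The part of this in the members' differences was not tested.

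Some members moved with the genes around them on their chromosome. The median log2 fold change of the tested genes within 5 Mb on either side of BCL2L2 was -0.66 in DU145 with gRNA 10 (n = 83 genes), beside -0.75 for BCL2L2. With gRNA 2 in DU145 the same region was at -0.26 beside 0.02, and with gRNA 1 in 22Rv1 at 0.27 beside -0.29. Around BCL2 in PC3 with gRNA 2 it was -0.81 (n = 24) beside -0.74, while with gRNA 10 it was 0.04 beside -1.09. Around BCL2L1 in PC3 with gRNA 10 it was -0.50 (n = 70) beside -0.41, and around MCL1 0.29 (n = 156) beside 0.30. With gRNA 2 in PC3 the genes around MCL1 had a median of 0.36, whereas MCL1 was at -0.13. Around BMF in PC3 with gRNA 10 the median was -0.36 (n = 97) beside -1.39. By contrast, the neighbours of BAK1 in PC3 with gRNA 10 (0.00), of BIK in 22Rv1 with gRNA 10 (-0.06) and of BMF in 22Rv1 (0.03 with gRNA 1) stayed near 0. Those of BCL2L11 in 22Rv1 with gRNA 1 had a median of -0.19 beside -1.30. Around BCL2 in 22Rv1 (n = 18) the median was -0.36 beside -0.20 with gRNA 1 and -0.27 beside -0.24 with gRNA 10. Around BCL2L11 in DU145 (n = 39) it was 0.46 beside -0.31 with gRNA 2 and 0.45 beside 0.22 with gRNA 10. Around BCL2L1 in DU145 with gRNA 10 (n = 69) it was 0.31 beside -0.11. Whether the copy number of these regions differed between groups, and its part in the results, was not tested.

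**Figure D4:**
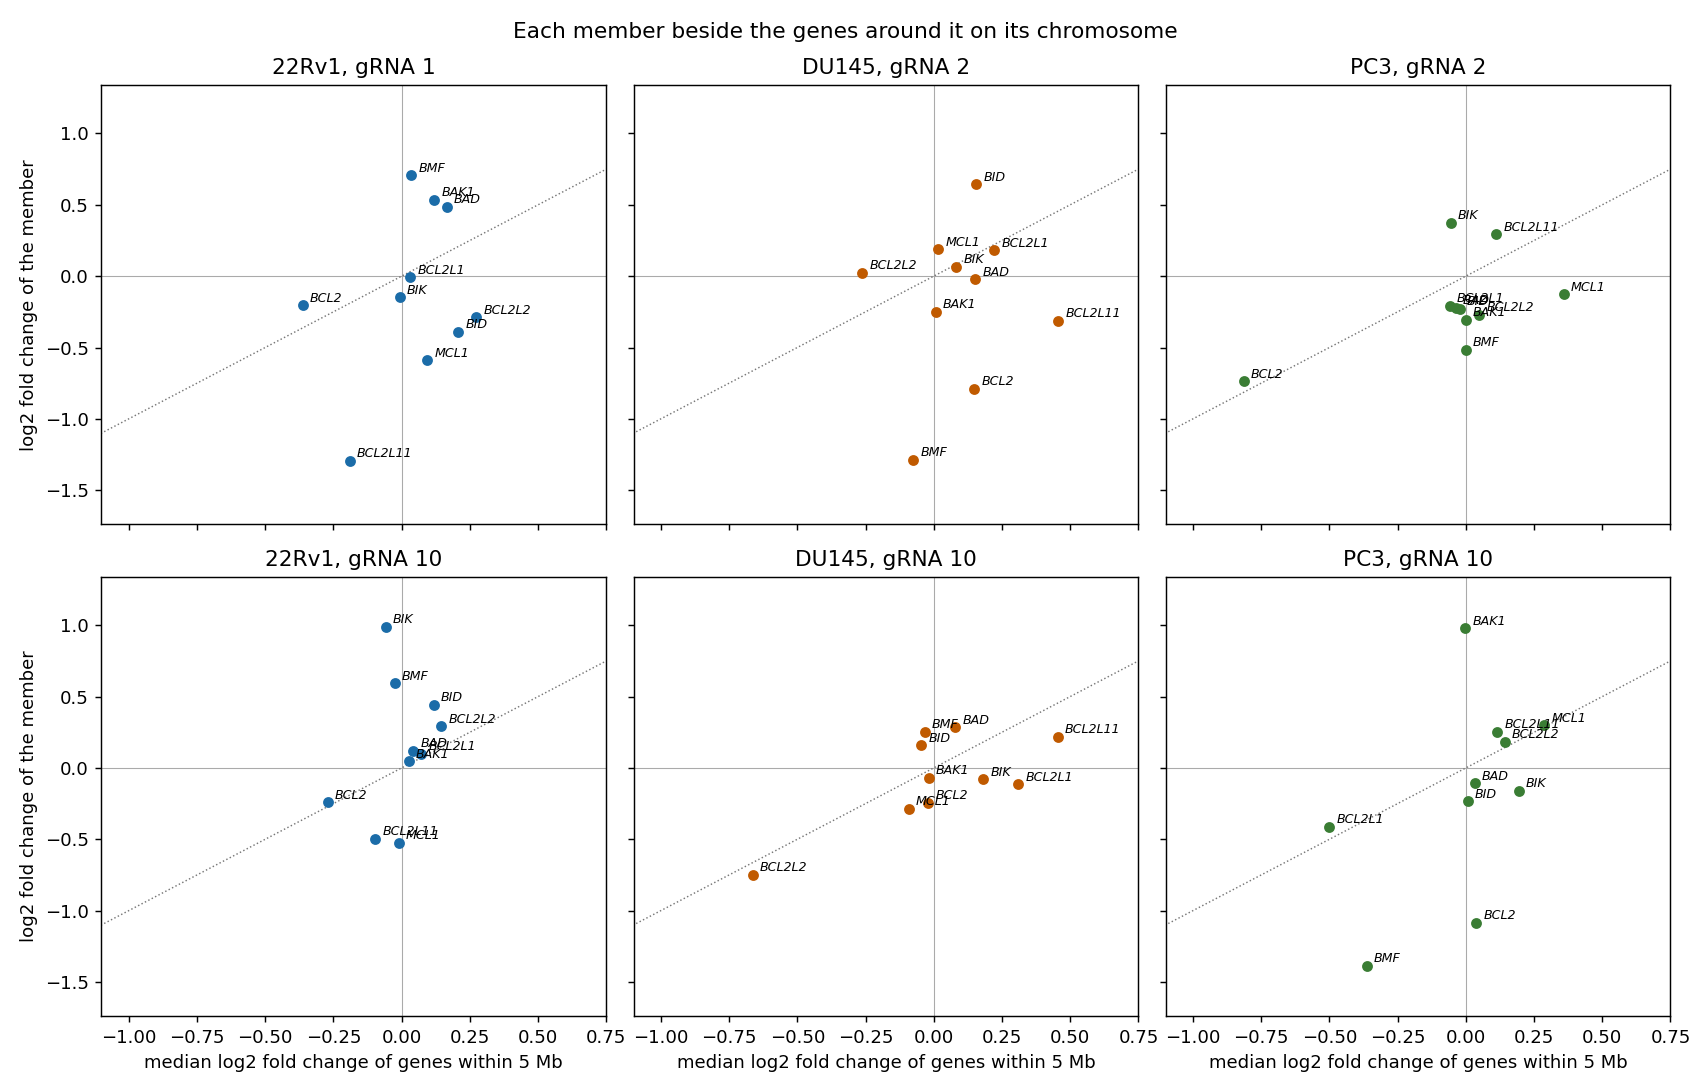
Log2 fold change of each of the 10 genes (vertical axis) against the median log2 fold change of all tested genes within 5 Mb on either side (horizontal axis), 1 panel per guide and line. The dotted line marks equal values. BCL2L2 in DU145 gRNA 10, BCL2 in PC3 gRNA 2, and BCL2L1 and MCL1 in PC3 gRNA 10 lie close to it away from 0.

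Other genes of the pathway were taken from 6 lists. The shares of all genes that rose and fell in each comparison are those given beside the members' counts. Of the other BCL2 family genes with enough counts, 3 rose and 2 fell among 8 in 22Rv1 with gRNA 1 (median log2 fold change 0.19, and -0.02 over 10 genes without a filter on low counts) and 2 rose and 1 fell with gRNA 10 (-0.11). In DU145, 5 rose and 2 fell among 9 with gRNA 2 (0.25) and 2 rose and 3 fell with gRNA 10 (-0.14). In PC3, 1 rose and 5 fell among 8 with gRNA 2 (-0.37, and -0.15 over 10 genes without the filter) and 4 rose and 1 fell with gRNA 10 (0.07). HRK, a BH3-only gene best known from neurons, gave the largest change that both guides shared in each line. It rose in 22Rv1 from 1.07 ± 0.298 CPM to 6.13 ± 1.61 and 5.07 ± 0.953 (log2 2.51 and 2.24, edgeR adjusted p = 3.51e-05 and 8.69e-05). HRK fell in DU145 from 4.89 ± 0.773 CPM to 0.760 ± 0.417 and 0.802 ± 0.0478 (log2 -2.67 and -2.60, edgeR adjusted p = 0.000146 and 8.46e-05). In PC3, at 10 to 24 counts in controls, 2 to 17 with gRNA 2 and 6 to 8 with gRNA 10, it fell by 1.09 and by 1.31 on the log2 scale (edgeR adjusted p = 0.0491 and 0.0198). BAX and PMAIP1 (NOXA, which binds MCL1) were chosen after their values were seen. Only the comparisons named next are given for them, so no pattern over guides or lines can be read from them. BAX rose with gRNA 1 in 22Rv1 (log2 0.90 ± 0.15, edgeR adjusted p = 0.000825) and with gRNA 2 in DU145 (0.59 ± 0.14, edgeR adjusted p = 0.00854). PMAIP1 moved oppositely with the PC3 guides, by -1.36 ± 0.08 with gRNA 2 and 1.23 ± 0.06 with gRNA 10 (edgeR adjusted p = 1.63e-12 and 9.81e-14).

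Among 10 genes of the apoptosome and caspases, the proteases of apoptosis, 9 were tested in 22Rv1 and all 10 in the other lines. In 22Rv1 2 rose and 1 fell with gRNA 1 (median 0.15) and 3 rose and 2 fell with gRNA 10 (0.20, and 0.02 without the filter), in DU145 2 rose and 4 fell with gRNA 2 (-0.31) and 2 rose and 2 fell with gRNA 10 (-0.06), and in PC3 3 rose and 3 fell with gRNA 2 (0.05) and 3 rose and 4 fell with gRNA 10 (-0.04). The initiator caspase gene CASP9 rose in 22Rv1 from 11.3 ± 0.492 CPM to 16.4 ± 1.39 and 16.8 ± 1.46 (edgeR adjusted p = 0.00319 and 0.00249). CASP2 fell in DU145 from 87.5 ± 2.63 CPM to 54.9 ± 6.10 and 38.0 ± 1.48 (edgeR adjusted p = 0.000438 and 7.40e-06), and CASP10 in PC3 from 5.48 ± 0.187 CPM to 2.20 ± 0.576 and 1.46 ± 0.222 (edgeR adjusted p = 1.01e-08 and 1.49e-11).

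Of 7 inhibitor of apoptosis (IAP) genes and their antagonists, 1 rose and 1 fell in 22Rv1 with gRNA 1 (median -0.05). With gRNA 10 in 22Rv1 edgeR called 0 of 7 and DESeq2 also 0, with 1 at an unadjusted p below 0.05 (median -0.06). In DU145, 2 rose with each guide (0.03 and 0.08), and in PC3 2 rose with gRNA 2 (0.08) and 2 rose and 2 fell with gRNA 10 (-0.04). BIRC3, the NF-kB target gene for the ubiquitin ligase cIAP2, rose in DU145 from 23.2 ± 2.25 CPM to 104 ± 14.3 with gRNA 2 and 479 ± 32.2 with gRNA 10 (log2 2.16 ± 0.12 and 4.37 ± 0.13, edgeR adjusted p = 2.15e-06 and 1.69e-08). DIABLO, an IAP antagonist, rose in PC3 with both guides (log2 0.39 and 0.44, edgeR adjusted p = 0.0143 and 0.00397).

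Among 6 genes for death receptors and the inhibitor FLIP, 2 rose in 22Rv1 with gRNA 1 (median 0.43) and 2 rose and 1 fell with gRNA 10 (-0.01). In DU145, 4 rose with gRNA 2 (0.47) and 2 rose and 1 fell with gRNA 10 (-0.04), and in PC3 5 fell with gRNA 2 (-0.28) and 1 rose and 4 fell with gRNA 10 (-0.14). TNFRSF1A, the TNF receptor gene, rose in 22Rv1 from 43.6 ± 0.699 CPM to 74.8 ± 6.24 and 67.4 ± 2.15 and fell in PC3 from 109 ± 1.30 CPM to 79.4 ± 3.92 and 91.5 ± 3.82 (edgeR adjusted p from 1.60e-10 to 0.000284). FAS rose in DU145 (log2 0.78 and 0.36, edgeR adjusted p = 0.00059 and 0.0262).

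Of 9 genes for partners and turnover of BCL2 family proteins, 2 rose and 3 fell in 22Rv1 with gRNA 1 (median -0.10, with 0 rises and 3 falls without the filter) and 2 rose and 1 fell with gRNA 10 (-0.09). In DU145 1 fell with gRNA 2 (0.02, with 2 rises and 1 fall in DESeq2) and 3 rose with gRNA 10 (0.10), and in PC3 6 fell with gRNA 2 (-0.24) and 3 rose and 5 fell with gRNA 10 (-0.41). DYNLL2, the dynein light chain that tethers BMF, fell in 22Rv1 from 406 ± 6.69 CPM to 276 ± 20.7 and 298 ± 10.4 (edgeR adjusted p = 0.000328 and 0.00151). BAG1, a BCL2-binding co-chaperone, fell in PC3 from 59.3 ± 2.17 CPM to 47.6 ± 1.99 and 29 ± 0.686 (edgeR adjusted p = 1.22e-06 and 1.79e-17). Of 10 transcription factors known to act on BCL2 family genes, 3 rose and 2 fell in 22Rv1 with each guide (median 0.02 for both). In DU145, 2 rose and 2 fell with gRNA 2 (0.00) and 2 rose and 1 fell with gRNA 10 (0.00), and in PC3, of 9 tested, 2 rose and 4 fell with gRNA 2 (-0.11) and 3 rose and 2 fell with gRNA 10 (0.00). TP73, a p53 relative, rose in 22Rv1 from 2.48 ± 0.582 CPM to 5.42 ± 2.37 and 8.99 ± 0.649 (edgeR adjusted p = 0.00841 and 0.000387). In PC3, where the controls held 0 to 2 counts, its gRNA 2 level was at least 22.8-fold higher than controls set at a floor of 3 counts per library. For gRNA 10 the level was at least 53.2-fold higher, and the list's medians are the same with TP73 at these bounds.

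**Figure D5:**
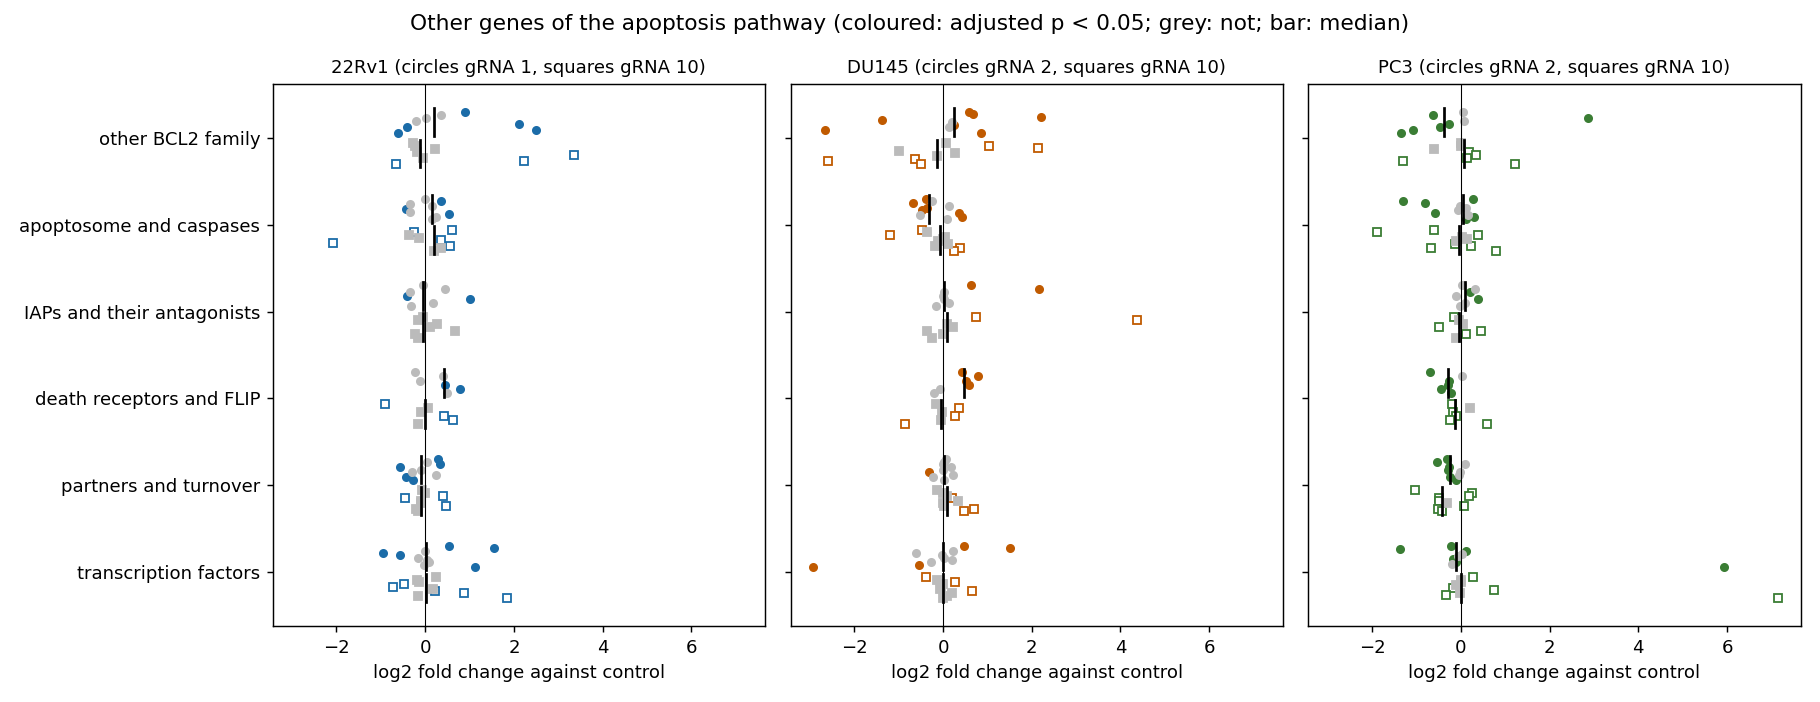
Log2 fold change against control (horizontal axis) of the tested genes of 6 pathway lists with each guide, 1 panel per line. Coloured points passed edgeR at an adjusted p below 0.05, and bars are list medians. The 2 points farthest right in PC3 are TP73, whose controls were at or under 3 counts, so their distance from 0 is not set.

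BID had the widest range of group levels of the members, 4.67 on the log2 CPM scale from 22Rv1 gRNA 1 to DU145 gRNA 2. Of 12029 genes compared over the 9 group means, the most alike by Pearson's r were KIF20B (0.996), USB1 (0.994) and SMOX (0.991). The groups of a line share its background, so this likeness mainly follows the order of the lines, DU145 above PC3 above 22Rv1, and it is given as a description.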

How the data were processed

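RNA from 27 libraries (9 groups of 3) was sequenced as strand-specific mRNA with paired reads on a DNBSEQ platform, per the labels' protocols. The authors deposited raw read counts per gene symbol, with 1 table for each line. The submitters' processing notes name FastQC, STAR, edgeR and the build hg38, and the counting program, annotation and strand setting are not given in the sources used here. Samples were grouped by their titles, and repeated symbols (2 to 6 per table) were summed.

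The 10 genes, the pathway lists and the tests were chosen with earlier results of these data known. Counts were tested with edgeR 4.0.16 (R 4.3.3) by the quasi-likelihood F test, robust and two-sided, with TMM factors and filterByExpr (minimum count 10, minimum total 15). P-values were adjusted by Benjamini-Hochberg over all genes of a contrast. Guides were tested within each line over its 9 libraries, and lines in a model of all 27 libraries. Levels are CPM, the count scaled to a common library size after TMM within each line, and 3 counts are 0.144 to 0.178 CPM. Library totals of 17958558 to 20650819 counts limit precision for genes of few counts, and that floor covers counting error only. Lengths and positions came from GENCODE 29, upstream sequences from RefSeq. All 10 genes are described in each contrast, and from each pathway list the gene with the largest change that both guides of a line shared, with BAX and PMAIP1 added after their values were seen.

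Alternatives were RLE factors, library sizes without mitochondrially encoded genes, DESeq2 1.42.0, no filter, at least 10 counts in every library, only the groups compared, a replicate block, each library left out, and both libraries that stand apart left out. Scripts were tested on simulated data. A gene of the marker lists, and the list sum that holds it, are not reported here.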

Additional observations from a re-analysis of the deposited data

Results flagged for a closer look

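The results in this section are differences of the gRNA 10 effect between lines, each past an adjusted p of 0.05 in edgeR's quasi-likelihood test of the difference itself over all 27 libraries. Values are the first line's log2 fold change minus the second's, and comparisons that share a line are not independent. The gRNA 10 change of RIPK2 RNA itself also differed between the lines, as given above.

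Between DU145 and 22Rv1, the effect differed for BCL2L11 by 0.71, for BCL2L2 by -1.05 and for BIK by -1.08. BCL2L11 fell and BIK rose with gRNA 10 in 22Rv1, and BCL2L2 fell with it in DU145. Between PC3 and 22Rv1, positive differences were 0.90 for BAK1, 0.71 for BCL2L11 and 0.79 for MCL1. Negative differences were -2.02 for BMF, -1.19 for BIK, -0.88 for BCL2, -0.71 for BID and -0.55 for BCL2L1. BMF, MCL1 and BCL2L11 passed the test against control with opposite signs in these lines. Between PC3 and DU145, positive differences were 1.02 for BAK1, 0.90 for BCL2L2 and 0.56 for MCL1. Negative differences were -1.67 for BMF, -0.87 for BCL2, -0.42 for BID, -0.42 for BAD and -0.33 for BCL2L1, and those of BID, BAD and BCL2L1 lost their call when some single libraries were left out.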

How the results depend on the processing

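Of 150 results on single genes, 100 kept their direction and side of the threshold under every alternative run, and 0 results past the threshold changed direction. Of the 33 guide results past the threshold, 27 kept their call under every alternative. The count for DU145 gRNA 10 was 1 in the fit of the line and 7 with only the groups compared, and for DU145 gRNA 2 against gRNA 10 it was 7 and 4. The count of gRNA 10 effects differing between DU145 and 22Rv1 went from 3 to 6 without both libraries that stand apart. With 1 library left out at a time, counts ranged from 3 to 7 for 22Rv1 gRNA 10, from 2 to 5 for DU145 gRNA 2, from 1 to 4 for DU145 gRNA 10, from 3 to 8 for DU145 gRNA 2 against gRNA 10, and from 5 to 8 for the gRNA 10 effect of PC3 against DU145. The share of all genes moved too. For 22Rv1 gRNA 10 it was 29.9% beside the 3 and 58.3% beside the 7, reached without gRNA 1 replicate 3. For DU145 gRNA 2 it was 22.5% beside a count of 2, without control replicate 2. For DU145 gRNA 10 it was 29% beside a count of 1, without control replicate 1. Shares beside the 5 and 4 in these DU145 comparisons are given with the members' counts. Over all genes tested, DU145 gRNA 2 calls fell from 5072 to 3335 and gRNA 10 calls went from 5956 to 9749 with only the groups compared. The cause was not tested. Of the pathway list counts, 3 moved by over 1.5 times: partners and turnover went from 5 to 3 in 22Rv1 gRNA 1 without a filter and from 1 to 3 in DU145 gRNA 2 with DESeq2, and IAPs from 2 to 1 in PC3 gRNA 2 with DESeq2. The median of the transcription factors in 22Rv1 gRNA 1 went from 0.02 to -0.04 without a filter.

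Values below the threshold that turned sign (log2) were BCL2L1 in 22Rv1 gRNA 1 at 0.013 with at least 10 counts in every library, and without a filter BCL2 in 22Rv1 gRNA 1 against gRNA 10 at -0.0031 and BAD in DU145 gRNA 2 at 0.0024. With 1 library left out, ranges spanning 0 were -0.11 to 0.12 for BCL2L1 in 22Rv1 gRNA 1, -0.041 to 0.12 for BAK1 in 22Rv1 gRNA 10, -0.10 to 0.21 for BCL2 and -0.21 to 0.021 for BCL2L1 in 22Rv1 gRNA 1 against gRNA 10, -0.049 to 0.092 for BCL2L2 and -0.11 to 0.14 for BAD in DU145 gRNA 2, and -0.13 to 0.0036 for BIK in DU145 gRNA 10. In PC3 they were -0.43 to 0.061 for BIK with gRNA 10, and -0.063 to 0.14 for BCL2L11 and -0.052 to 0.051 for BID between guides. Between controls they were -0.019 to 0.13 for BIK and -0.20 to 0.0062 for BMF (DU145 against 22Rv1) and -0.027 to 0.046 for BCL2L2 (PC3 against 22Rv1). For the gRNA 10 effect they were -0.13 to 0.075 for BCL2 (DU145 against 22Rv1), and -0.10 to 0.11 for BCL2L11 and -0.37 to 0.12 for BIK (PC3 against DU145).

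In libraries of a line with the same replicate number, deviations from the group means were correlated at -0.081 to 0.339 in 22Rv1. The range was -0.189 to 0.073 in DU145 and -0.049 to 0.062 in PC3. The highest value was that of control replicate 3 and gRNA 1 replicate 3 in 22Rv1. No steady pairing by these title numbers was seen, but 3 replicates per group are too few to exclude one. Library names number some replicates differently. Libraries with the same such number gave -0.247 to 0.233 (7 pairs), -0.131 to 0.163 (7 pairs) and -0.0395 to 0.0439 (6 pairs), again without a steady pairing. With the replicate block, the count was 6 for DU145 gRNA 2 against gRNA 10, beside 35.1% of genes. It was 7 for the gRNA 10 effect of PC3 against DU145, and equal to those given for the other 13 comparisons. The block turned BMF between DU145 and 22Rv1 controls to 0.077 and the BCL2L11 effect of PC3 against DU145 to -0.0033.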
